A study of Mus musculus with 26 samples.

Results

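Integrins, laminins and the proteins that join them in the basement membrane were followed in supporting cells of the mouse cochlea. The genes were taken by name: every protein-coding gene of the deposited RNA tables whose symbol begins as an integrin alpha or beta gene, as a laminin alpha, beta or gamma chain or as a nidogen, plus Hspg2, Agrn and Dag1. This gave 47 of 48709 gene identifiers. They comprised 18 integrin alpha and 9 integrin beta subunits, 5 laminin alpha, 3 laminin beta and 3 laminin gamma chains, 2 nidogens, 2 heparan sulfate proteoglycans (Agrn and Hspg2), the dystroglycan gene Dag1, and 4 genes that carry an integrin-like symbol without encoding a subunit (Itgb1bp1, Itgb1bp2, Itgb3bp and Itgbl1). The name rule uses no measured value, but it was chosen with earlier results of these data known.

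Hair cells of the cochlea are held in place by supporting cells, which are not sensory themselves. Cochlear organs from mice at postnatal day 1 were kept in culture, in medium with the growth factors EGF and FGF, either with the gamma-secretase inhibitor DAPT, which stops Notch signalling, or with DMSO, in which it was dissolved. At 24 h, cells with GFP from the Notch modifier gene Lfng were sorted from 3 DMSO and 3 DAPT samples. At 48 h, cells marked by TdTomato through Lfng-CreER were sorted by a GFP reporter of the hair cell transcription factor Atoh1. The groups at 48 h were control (DMSO, TdTomato only, 2 RNA libraries), nonpermissive (DAPT, TdTomato only, 3 libraries) and permissive (DAPT, TdTomato and Atoh1-GFP, 3 libraries). The permissive group was therefore defined by a hair cell reporter, all groups were released with trypsin before sorting, and a sample held the cells that Lfng marks, of all supporting cell subtypes. Open chromatin (ATAC) and the histone mark H3K27ac (CUT&RUN, a mark of active promoters and enhancers) were measured at 48 h in 2 libraries per group. The labels do not say that replicates came from separate animals, so the spread behind each p-value may be technical only. The library kit and the sort both changed between 24 h and 48 h, so the time, the sort and the kit cannot be told apart and no test was made across times.

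Integrins are receptors made of 1 alpha and 1 beta subunit that tie the cell to its matrix. The beta 1 subunit pairs with many alpha subunits, whereas the beta 4 subunit pairs with alpha 6 alone and anchors epithelial cells to laminin in hemidesmosomes. The partners of alpha v include beta 3, beta 5, beta 6 and beta 8. The dimers of alpha v with beta 6 and beta 8 release active TGF-beta from its latent complex. Laminins are trimers of an alpha, a beta and a gamma chain that form the sheet of the basement membrane on which the cochlear epithelium rests. Nidogens, perlecan (Hspg2) and agrin link laminin to collagen IV and to cell surface receptors, and dystroglycan is a laminin and agrin receptor apart from the integrins. In the inner ear, alpha 8 beta 1 integrin is known for its part in the formation of hair cell stereocilia.

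The RNA libraries held between 10666050 and 13158897 counts at 24 h, and between 2165338 and 4896374 at 48 h. Spearman correlations between libraries of 1 group were 0.979 to 0.994 and 0.858 to 0.89, respectively. Markers of the sorted cells followed the labels: of 12 hair cell genes, 12 rose in permissive against control cells, and Atoh1 stood at 804, 1010 and 635 CPM in the permissive libraries and at 3.55 and 2.28 CPM in the control libraries (CPM is a count relative to the library's total, adjusted by TMM factors). Of 15 supporting cell genes, 12 fell with DAPT at 24 h and 11 fell in permissive against control cells. Summed mesenchyme markers were 491 to 610 CPM at 24 h, but 640 and 2810 CPM in control replicates 1 and 2, 1410 to 3410 CPM in nonpermissive and 230 to 685 CPM in permissive cells. Lum alone made up 901, 2520 and 1040 CPM of the nonpermissive sums. Of the 11 mesenchyme genes tested at 48 h, 8 had a log2 fold change below 0 in nonpermissive against control cells. Summed endothelium markers were 12.5 to 22.9 CPM at 24 h, 14.6 and 50.2 CPM in control, 114 to 277 CPM in nonpermissive and 47.0 to 147 CPM in permissive cells. Mesenchyme and vessel walls also make laminins, nidogens and perlecan, and these sums are given again beside the members they move with.

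Levels were first compared between genes on the TPM scale, which is per transcript length. In DMSO-treated cells at 24 h, Itga6 stood highest among the alpha subunits at 595 ± 37.1 TPM (SD, n = 3), followed by Itga8 at 230 ± 45.6 TPM, Itgav at 67.8 ± 12.5 TPM and Itga9 at 29.9 ± 4.13 TPM, and these levels did not overlap. Of the beta subunits, Itgb1 at 253 ± 21.3 TPM and Itgb5 at 213 ± 16.6 TPM led, and their libraries lay close together. Itgb6 followed at 31.2 ± 8.12 TPM, Itgb8 at 20.1 ± 3.29 TPM and Itgb4 at 5.78 ± 0.43 TPM. The hemidesmosomal partner of alpha 6 thus had a far lower level than Itgb1.

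Among laminin chains in the same libraries, the alpha chains Lama5 (83.6 ± 24.3 TPM) and Lama2 (45.0 ± 11.7 TPM), the beta chain Lamb2 (165 ± 18.0 TPM) and the gamma chain Lamc1 (52.4 ± 3.33 TPM) were the highest of their kind. The other beta chain of widespread laminins, Lamb1, had 4.22 ± 1.45 TPM. Lamb3 and Lama3 were low, at 2.81 ± 0.778 TPM and 0.137 ± 0.116 TPM. Agrn had 301 ± 22.1 TPM and Dag1 187 ± 26.1 TPM, against 2.95 ± 0.2 TPM for Nid1, 1.99 ± 0.202 TPM for Nid2 and 0.44 ± 0.312 TPM for Hspg2. The sorted cells therefore held much RNA of 1 matrix linker, agrin, and of its receptor dystroglycan, and little of nidogens and perlecan.

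At 48 h several of the same genes stood high in control cells, with Itga6 at 973 ± 578 TPM (SD, n = 2), Agrn at 768 ± 225 TPM, Itga8 at 425 ± 235 TPM, Itgb5 at 273 ± 20.6 TPM and Dag1 at 182 ± 1.87 TPM. Itgb1 and Lamb2, at 253 ± 21.3 and 165 ± 18.0 TPM under DMSO at 24 h, had 147 ± 61.7 and 20.8 ± 2.12 TPM in these control cells. Agrn, and Lamc1, Itgav and Hspg2, also high in TPM there, need their transcript length beside them, because the deposited tables weight it by the isoforms assigned in each library. The length of Agrn was 2198 to 2201 bases in control libraries, against 3892 to 4330 bases in the DMSO libraries at 24 h. Lamc1 had 512 ± 129 TPM over 1800 to 1919 bases, against 5228 to 6380 bases at 24 h. Itgav had 231 ± 52.9 TPM over 734 to 1404 bases, against 6166 to 6458 bases. Hspg2 had 102 ± 29.4 TPM over 1111 to 1159 bases, against 4774 to 13460 bases. The length moved with the time and the kit for these genes, its part in their TPM was not tested, and all comparisons between groups below are on counts.

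**Figure D1:**
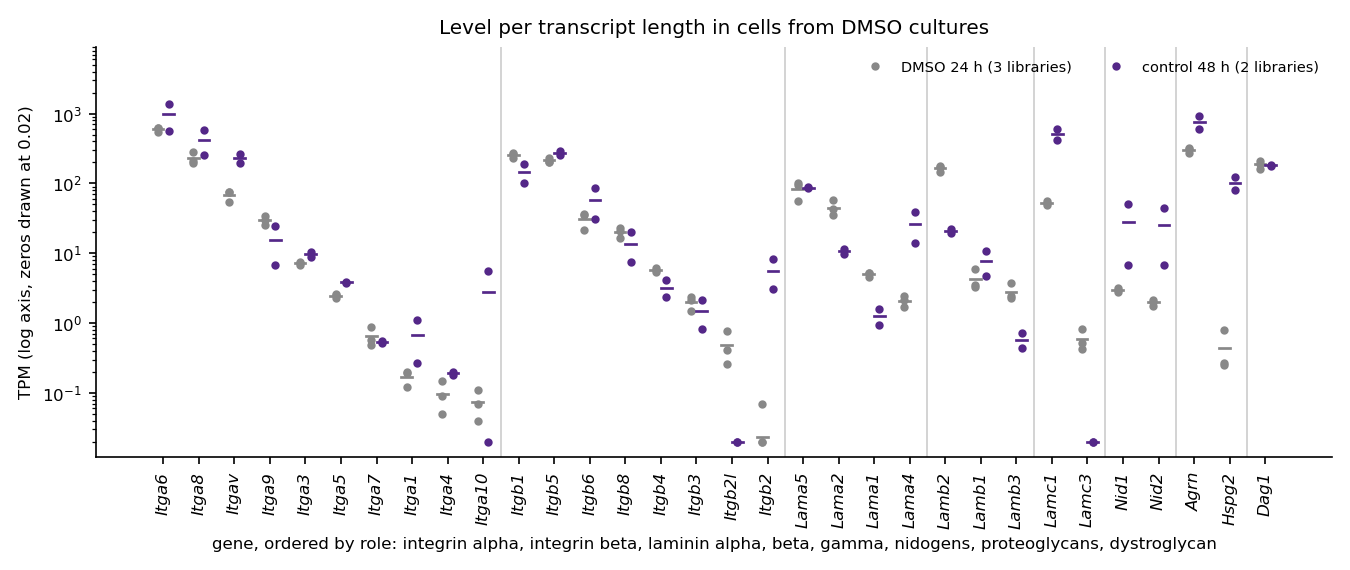
TPM (log axis) of tested integrin, laminin, nidogen, proteoglycan and dystroglycan genes in cells from DMSO cultures at 24 h (grey, 3 libraries) and at 48 h (purple, 2 libraries). Points are libraries and short lines are means. Itga6, Itgb1, Itgb5, Lama5, Lamb2, Agrn and Dag1 stand high at 24 h, and Nid1, Nid2 and Hspg2 stand at 2.95, 1.99 and 0.44 TPM there.

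These 3 genes carry the comparison at 48 h between RNA and chromatin: Itga8 and Itgb6, whose RNA was low only in the permissive group, and Itgb5, whose RNA was lower in permissive cells and whose start site lacked an H3K27ac peak there. The 250 bases before their start sites are shown here for that reason, 5′ to 3′ on the gene's strand, from the RefSeq promoter table for GRCm38.p6, the patch release of the build mm10 that the files use. Itga8 lies on the minus strand at chr2:12301945-12302194, Itgb6 on the minus strand at chr2:60722604-60722853 (the upstream one of its 2 listed start sites) and Itgb5 on the plus strand at chr16:33829415-33829664. Capitals mark the E-box CAGNTG, the word bound by basic helix-loop-helix factors such as ATOH1.
Itga8: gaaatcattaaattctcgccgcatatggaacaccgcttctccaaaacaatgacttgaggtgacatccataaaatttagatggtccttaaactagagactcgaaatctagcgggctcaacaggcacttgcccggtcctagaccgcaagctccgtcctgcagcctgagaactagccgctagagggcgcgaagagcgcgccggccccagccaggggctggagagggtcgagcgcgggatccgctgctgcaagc
Itgb6: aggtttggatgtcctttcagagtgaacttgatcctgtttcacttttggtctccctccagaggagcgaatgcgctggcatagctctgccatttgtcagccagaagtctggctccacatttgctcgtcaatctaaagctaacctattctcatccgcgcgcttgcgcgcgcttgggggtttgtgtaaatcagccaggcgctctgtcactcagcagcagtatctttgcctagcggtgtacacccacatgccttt
Itgb5: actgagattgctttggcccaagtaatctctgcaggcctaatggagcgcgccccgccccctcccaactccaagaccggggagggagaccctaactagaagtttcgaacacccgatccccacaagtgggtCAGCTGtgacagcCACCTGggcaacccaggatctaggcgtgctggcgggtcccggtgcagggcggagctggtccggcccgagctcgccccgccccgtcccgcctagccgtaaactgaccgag
The printed windows of Itga8 and Itgb6 hold no match to the RBPJ word TGGGAA, the E-box CAGNTG, the TEAD word GGAATG or the AP-1 word TGANTCA on either strand. The Itgb5 window holds 2 E-box matches and none of the others. The window before the downstream start site of Itgb6, at chr2:60673694-60673943 and not printed, holds 1 E-box match and none of the others. The 4 words do not overlap in these windows. Of 21263 windows of this length before start sites of protein-coding genes, 20.9% held the RBPJ word, 42.0% the E-box, 11.7% the TEAD word and 6.13% the AP-1 word. Of the 36 windows of the members in the table, 8 (22.2%) held the RBPJ word, 20 (55.6%) the E-box, 4 (11.1%) the TEAD word and 1 (2.78%) the AP-1 word. The median GC content was 58.6% in the members' windows and 55.6% in those of all protein-coding genes. None of these differences was tested.

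The comparison at 24 h asks how a day of DAPT changed all Lfng-GFP cells. Of the 47 genes, 33 had enough counts to be tested. By edgeR's quasi-likelihood test with Benjamini-Hochberg adjustment over all 15174 genes tested, 17 were lower and 1 was higher at an adjusted p below 0.05. Of all genes, 14.2% were called lower and 11.5% higher, and the median log2 fold change was -0.58 over the tested members and 0.01 over all genes. Lower genes included the laminin receptors' alpha 6, beta 1 and beta 4 subunits, the alpha v partners beta 5 and beta 8, 7 of 10 tested laminin chains and agrin. In bulk samples fewer cells of a type and less RNA per cell cannot be told apart. The fall went with the lower supporting cell markers given above and with summed hair cell markers of 5880 to 9640 CPM under DAPT against 2030 to 2460 CPM under DMSO. Summed pericyte and smooth muscle markers were 167 to 200 CPM under DMSO and 31.4 to 40.8 CPM under DAPT, and those of Schwann cells and satellite glia 331 to 433 CPM and 138 to 172 CPM. Most of the first sum was Notch3, at 152, 176 and 186 CPM under DMSO and 28.8, 24.2 and 33.8 CPM under DAPT. Of the 7 genes of that list tested, 3 were called lower and 1 higher. In the second sum, Erbb3 had 168, 173 and 158 CPM against 110, 98.5 and 118 CPM. Fabp7 had 195, 153 and 116 CPM against 7.36, 3.85 and 10.0 CPM. The part of these cells in the fall was not tested.

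Itga6, the main laminin-binding alpha subunit of epithelia, had 1050, 1030 and 944 CPM under DMSO and 264, 263 and 486 CPM under DAPT. All DAPT libraries lay below all DMSO libraries, and the log2 fold change was -1.58 ± 0.23 (SE; adjusted p = 0.00119, edgeR). Its hemidesmosomal partner Itgb4 had 16.8, 15.5 and 15.5 CPM under DMSO and 6.99, 7.41 and 5.15 CPM under DAPT, a log2 fold change of -1.28 ± 0.18 (adjusted p = 0.000902, edgeR). Itgb1, the common beta subunit, changed less: 447, 494 and 525 CPM became 311, 294 and 375 CPM, without overlap (-0.58 ± 0.11, adjusted p = 0.00604, edgeR). Alpha 6 and both of its beta partners were thus lower, alpha 6 and beta 4 by more than beta 1, a difference between genes that was not itself tested.

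Of the alpha v dimers, Itgb5 and Itgb8 moved furthest. Itgb5 had 363, 307 and 318 CPM under DMSO and 132, 130 and 143 CPM under DAPT (-1.29 ± 0.09, adjusted p = 2.76e-05, edgeR). Itgb8, of the TGF-beta-activating dimer, had 66.9, 92.4 and 83.8 CPM against 29.0, 19.9 and 30.3 CPM (-1.62 ± 0.18, adjusted p = 0.000269, edgeR). Neither gene's groups overlapped. Itgav itself had 180, 233 and 254 CPM against 126, 118 and 153 CPM, also without overlap (-0.75 ± 0.14, adjusted p = 0.00554, edgeR). Itgb6, of another alpha v dimer, showed no such difference, with 65.5, 50.5 and 70.7 CPM under DMSO and 69.7, 57.4 and 57.0 CPM under DAPT (-0.02 ± 0.14, adjusted p = 0.935). Itgb3 was at 4.19 to 6.55 CPM under DMSO and 3.33 to 5.43 CPM under DAPT and was not called.

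Itga8 likewise gave no call at 24 h: its levels were 614, 552 and 812 CPM under DMSO and 781, 670 and 713 CPM under DAPT, overlapping groups with a log2 fold change of 0.13 ± 0.14 (adjusted p = 0.559). Itga9, whose subunit joins beta 1 to bind tenascin-C and other ligands, had 72.5, 80.4 and 64.2 CPM against 33.5, 33.7 and 49.4 CPM and fell by 0.9 ± 0.16 on the log2 scale (adjusted p = 0.00407, edgeR). Itga5, the fibronectin receptor subunit, was low throughout, at 5.05 to 5.79 CPM under DMSO and 2.53 to 3.85 CPM under DAPT (-0.85 ± 0.25, adjusted p = 0.0336), and its call was lost without any 1 of 5 of the 6 libraries. Itga4, which pairs with beta 1 to bind VCAM1 and fibronectin, was the sole member that rose: it had 0.283, 0.746 and 0.446 CPM under DMSO and 2.18, 2.27 and 1.97 CPM under DAPT, 17 counts in all against 75 (2.08 ± 0.4, adjusted p = 0.00549, edgeR). Itga3 stood at 17.5 ± 0.227 CPM (SD, n = 3) under DAPT and did not differ by the test (0.0 ± 0.12, adjusted p = 0.995).

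Among the laminin alpha chains Lama1, a chain of early embryonic basement membranes, moved furthest, from 22.7, 25.5 and 26.2 CPM to 6.08, 7.86 and 2.34 CPM (-2.17 ± 0.33, adjusted p = 0.00165, edgeR). The chain of most epithelial basement membranes, Lama5, had 154, 152 and 184 CPM against 114, 117 and 115 CPM (-0.5 ± 0.09, adjusted p = 0.00462, edgeR), groups that did not overlap although the change was small. Lama2 was called lower (-0.64 ± 0.19, adjusted p = 0.0386), but its groups overlapped, since DMSO replicate 1 at 140 CPM lay below DAPT replicate 3 at 142 CPM, and 4 of the 6 single-library omissions ended the call. The low Lama4 was not called, at 4.72 to 6.69 CPM and 5.71 to 8.17 CPM.

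Lamb2, the main beta chain here, had 457, 391 and 472 CPM under DMSO and 220, 212 and 217 CPM under DAPT (-1.02 ± 0.09, adjusted p = 9.89e-05, edgeR). Its common partner Lamc1 had 134, 168 and 173 CPM against 79.5, 72.9 and 89.7 CPM (-0.97 ± 0.12, adjusted p = 0.000539, edgeR). The 2 chains fell by about the same amount. The low Lamb3 had 4.81, 4.39 and 6.95 CPM against 1.63, 2.65 and 2.72 CPM (-1.2 ± 0.3, adjusted p = 0.0193, edgeR; lost without DMSO replicate 3 or DAPT replicate 1). Lamb1 varied within groups, at 17.7, 10.2 and 9.53 CPM and 20.3, 19.2 and 8.06 CPM, and was not called (0.35 ± 0.36, adjusted p = 0.52).

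Agrin, which binds laminin gamma 1 and dystroglycan, had 639, 603 and 665 CPM under DMSO and 282, 255 and 312 CPM under DAPT, without overlap (-1.17 ± 0.1, adjusted p = 6.51e-05, edgeR). Dag1, its receptor, had 402, 462 and 516 CPM against 377, 403 and 351 CPM, overlapping by 1 CPM between DMSO replicate 1 and DAPT replicate 2, and was not called (-0.29 ± 0.11, adjusted p = 0.09). Nid1 had 8.67, 9.03 and 9.89 CPM against 6.27, 4.76 and 4.12 CPM (-0.86 ± 0.21, adjusted p = 0.0163, edgeR; lost without DMSO replicate 3 or DAPT replicate 2). Nid2 (-0.49 ± 0.27, adjusted p = 0.226) and Hspg2 (-0.67 ± 0.44, adjusted p = 0.306), both low at 24 h, were not called. Without the groups' overlap, 16 members lay lower and 1 higher under DAPT, where 21.7% and 20.7% of all genes did.

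**Figure D2:**
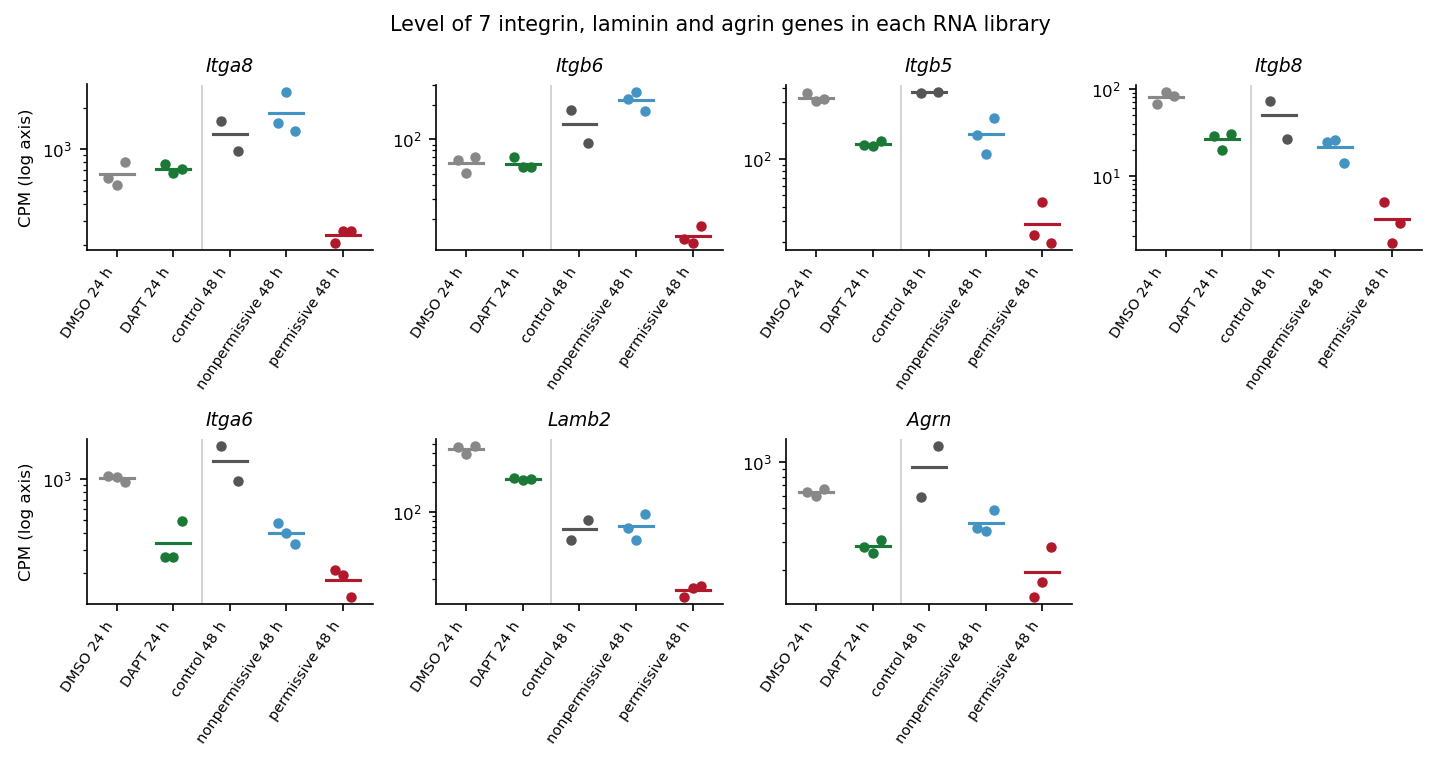
CPM (log axis) of 7 members in each RNA library, with points for libraries, short lines for group means and a grey line between the 24 h and 48 h series, which were scaled apart. Itga8 and Itgb6 overlap between DMSO and DAPT at 24 h and stand lowest in the 3 permissive libraries, at 208 to 252 CPM and 12.4 to 17.4 CPM, whereas Itgb5, Itgb8, Itga6, Lamb2 and Agrn are already lower with DAPT at 24 h.

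Permissive against control cells at 48 h sets DAPT-treated cells that had turned on the Atoh1 reporter against DMSO-treated cells of the Lfng lineage. Of 32 members tested at 48 h, 14 were lower in permissive cells and none was higher (18 lower and none higher at an unadjusted p below 0.05, and 14 lower and none higher by DESeq2) by edgeR's quasi-likelihood test (adjusted over 13411 genes), where 7.28% of all genes were called lower and 5.72% higher. Of all 13411 genes, 3460 had an unadjusted p below 0.05 in either direction. DESeq2 called 17.7% of the genes it tested, 1243 lower and 1117 higher. The 14 are 43.8% of those tested, and 31 of the 32 log2 fold changes were below 0, with a median of -1.88 against 0.06 over all genes. The lower genes were 10 of 16 tested integrin subunits, 3 of 8 tested laminin chains and Agrn. The count fell when either control library was left out, which leaves 1 control library, and so did the number called over all genes. The members' count thus rests in part on each of the 2 control libraries, as does that of all genes. The supporting cell and hair cell markers given above moved in the same libraries. Summed pericyte and smooth muscle markers were 146 and 184 CPM in control and 2.68 to 17.8 CPM in permissive cells, and those of Schwann cells and satellite glia 527 to 998 CPM and 99.5 to 274 CPM. Notch3 made up most of the first sum in control, at 141 and 154 CPM, and had 4.13, 0.335 and 6.47 CPM in permissive cells. Erbb3 made up most of the second in control, at 790 and 392 CPM, and had 68.7, 64.9 and 101 CPM in permissive cells. The part of these cells in the calls was not tested.

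Itga8 was among the most abundant integrin genes of control cells, at 1590 and 975 CPM, and had 208, 252 and 252 CPM in permissive cells. The groups stood far apart, with a log2 fold change of -2.43 ± 0.44 (SE; adjusted p = 0.0023, edgeR), or 5.4-fold lower. Itga6 had 1750 and 966 CPM in control and 212, 195 and 134 CPM in permissive cells (-2.91 ± 0.44, adjusted p = 0.000684, edgeR). Itga9 had 38.9 and 21.1 CPM against 6.6, 3.68 and 6.87 CPM (-2.38 ± 0.59, adjusted p = 0.016, edgeR), a call lost without control replicate 1 or permissive replicate 2. Itgav fell by 1.68 ± 0.45 on the log2 scale (adjusted p = 0.0233), from 112 and 95.6 CPM to 42.1, 22.4 and 32.3 CPM, and 4 of the 5 single-library omissions ended its call.

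Of the beta subunits, 6 of 7 tested were called lower, with a median log2 fold change of -3.26. Itgb5 had 361 and 367 CPM in control and 22.9, 43.8 and 19.8 CPM in permissive cells (-3.66 ± 0.49, adjusted p = 0.000324, edgeR), 12.6-fold lower. Itgb6 had 182 and 93.3 CPM against 13.4, 12.4 and 17.4 CPM (-3.26 ± 0.45, adjusted p = 0.000422, edgeR). Itgb8 had 72.6 and 26.8 CPM against 4.95, 1.67 and 2.83 CPM (-3.93 ± 0.68, adjusted p = 0.00182, edgeR). Itgb5, Itgb6 and Itgb8 were thus 12.6-fold, 9.57-fold and 15.3-fold lower by the fitted values, with no overlap.

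Itgb4 had 10.8 and 8.56 CPM in control and 0.619, 1.67 and 0.809 CPM in permissive cells (-3.21 ± 0.91, adjusted p = 0.0309, edgeR), with 4 of 5 single-library omissions ending the call. Itgb1 had 333 and 252 CPM against 138, 45.2 and 89.8 CPM (-1.68 ± 0.48, adjusted p = 0.0341, edgeR), and its call too was lost in 4 of 5 omissions. Itgb2, the beta subunit of white blood cells, had 8.98 and 4.85 CPM in control cells and 0.0, 0.335 and 0.0 CPM in permissive cells, 65 counts against 1. The ratio of control to permissive was 75.7, with an exact 95% interval of 13.1 to 3030 that covers counting error only, and the call (adjusted p = 0.0129, edgeR) was lost without control replicate 1. Markers of blood cells and macrophages went both ways in these libraries: of 11, 4 lay lower and 1 higher in permissive than in control cells without overlap. Their sum was 50.3 and 83.6 CPM in control and 61.3, 113 and 258 CPM in permissive libraries, where Laptm5, the highest of them, made up 60.0, 79.3 and 166 CPM against 5.05 and 18.5 CPM in control, while the leukocyte gene Ptprc had 3.37 and 1.14 CPM in control and 0.0, 0.0 and 0.404 CPM. The part of such cells in the Itgb2 result was not tested.

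Of the laminin chains, Lamb2 had 50.7 and 82.2 CPM in control and 13.2, 16.4 and 17.0 CPM in permissive cells (-2.1 ± 0.48, adjusted p = 0.0105, edgeR; lost without control replicate 2). Lama2 had 41.1 and 48.8 CPM against 15.7, 10.0 and 9.3 CPM (-1.93 ± 0.55, adjusted p = 0.0323, edgeR), lost in 4 of 5 omissions. Lamc1 (501 and 455 CPM against 114, 290 and 198 CPM) and Lama5 (83.2 and 99.6 CPM against 53.0, 37.2 and 65.1 CPM) did not overlap between groups either, yet neither passed the test, at log2 fold changes of -1.25 ± 0.49 (adjusted p = 0.114) and -0.82 ± 0.48 (adjusted p = 0.323). Lamb1 had 12.2 and 30.2 CPM against 4.33, 5.69 and 29.1 CPM and was not called (adjusted p = 0.609). Lama3 had no count in any of the 8 libraries at 48 h, and Lamb3 had at most 1.31 CPM.

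Agrn had 587 and 1260 CPM in control and 133, 165 and 280 CPM in permissive cells (-2.26 ± 0.47, adjusted p = 0.00594, edgeR), a call lost without control replicate 2. Dag1 had 484 and 669 CPM against 445, 385 and 382 CPM and was not called (-0.51 ± 0.41, adjusted p = 0.486). Its interval is wide enough that a fall of the size seen at 24 h cannot be told from none. Counting groups that did not overlap, 21 of the 32 tested members were lower and none higher in permissive cells, against 20.1% and 20.5% of all genes.

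The nidogens, Lama4 and Hspg2 varied widely between libraries of 1 group. Nid1 had 18.9 and 199 CPM in the control libraries, 51.9, 7.99 and 29.1 CPM in nonpermissive and 7.84, 10.4 and 55.0 CPM in permissive cells. Nid2 had 15.1 and 142 CPM in control, 65.9, 71.4 and 161 CPM in nonpermissive and 14.2, 7.03 and 41.6 CPM in permissive cells. Control replicate 2 was the high one of its pair for both, and permissive replicate 3 the high one of its group. Lama4, a laminin chain of vessel walls, had 14.6 and 71.6 CPM in control, 68.7, 28.0 and 152 CPM in nonpermissive and 22.1, 24.4 and 82.5 CPM in permissive cells. Hspg2 had 37.2 and 75.0 CPM, then 98.0, 16.0 and 52.8 CPM, then 16.7, 10.4 and 26.7 CPM in the same order, so that its permissive libraries lay below both control libraries (-1.65 ± 0.67, adjusted p = 0.132, edgeR). None of the 4 was called at 48 h in the main fit. Nid2 lay lower in permissive than in nonpermissive cells without overlap (-2.25 ± 0.78, adjusted p = 0.0757, edgeR), and was called there with the replicate number as a block (adjusted p = 0.0204) and by DESeq2 (0.0154). In the same libraries summed mesenchyme markers were 640 and 2810 CPM in control, 1410, 3410 and 1870 CPM in nonpermissive and 230, 239 and 685 CPM in permissive cells. Summed endothelium markers were 14.6 and 50.2 CPM in control, 228, 114 and 277 CPM in nonpermissive and 47.0, 79.3 and 147 CPM in permissive cells. Control replicate 2 and permissive replicate 3 were the highest of their groups in both sums. In nonpermissive cells, replicate 2 had the highest mesenchyme sum and the lowest endothelium sum, and the lowest Nid1, Lama4 and Hspg2. That mesenchyme sum was mostly Lum (2520 CPM) and Dcn (774 CPM). The other mesenchyme markers were lowest or tied for lowest in this library, apart from Col3a1. Col1a2 had 63.1, 24.0 and 170 CPM in nonpermissive libraries, and 1390 CPM in control replicate 2. The part of either cell type in these values was not tested.

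**Figure D3:**
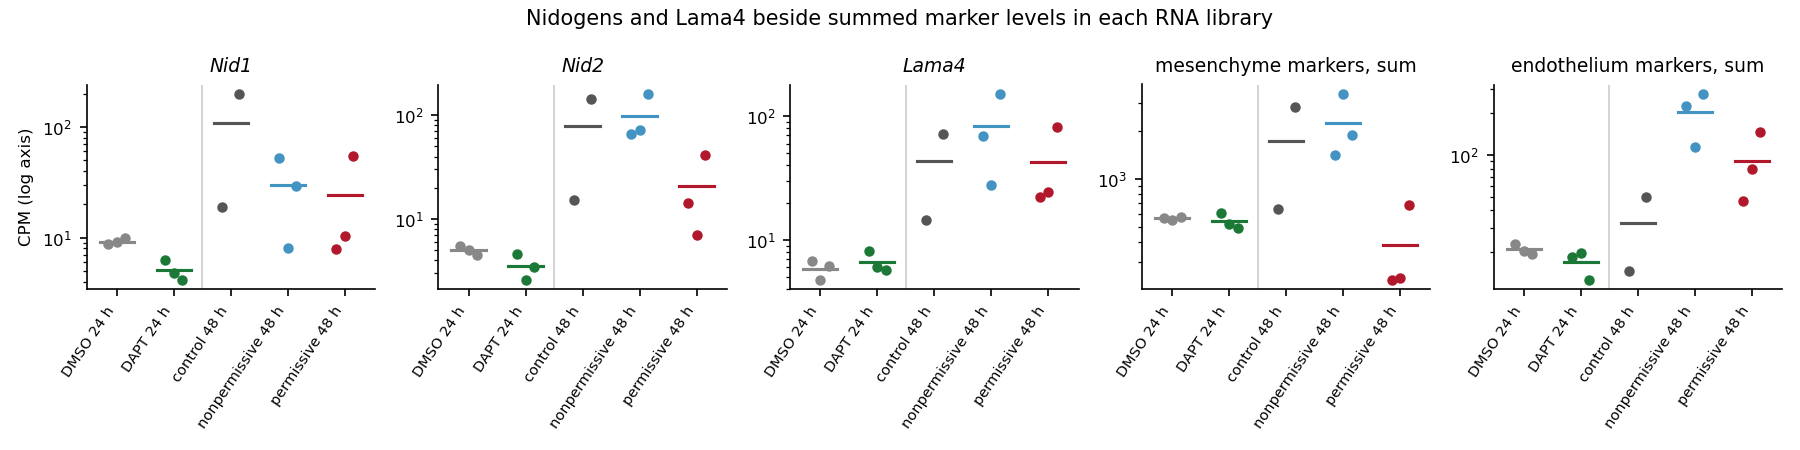
CPM (log axis) of Nid1, Nid2 and Lama4 and of the summed markers of mesenchyme and endothelium in each RNA library, with points for libraries and short lines for group means. Control replicate 2, the right point of the control pair, is higher than replicate 1 in all 5 panels, and permissive replicate 3 is the highest of its group in all 5.

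Nonpermissive cells received the same DAPT as permissive cells and did not carry the Atoh1 reporter. Against control cells, none of the 32 members was called by edgeR (0.127% of all genes were called lower and 0.0671% higher). Of the members, 5 had an unadjusted p below 0.05, beside 986 of all 13411 genes tested. DESeq2 called 2 members, and 155 of the 13111 genes it tested (1.18%). The median log2 fold change was -0.32 over the members and 0.0 over all genes. The largest falls among the 5 concerned Itga6, at 470, 397 and 330 CPM against 1750 and 966 CPM (-1.77 ± 0.43, adjusted p = 0.171), Agrn, at 372, 353 and 484 CPM against 587 and 1260 CPM (-1.19 ± 0.46, adjusted p = 0.565), and Itgb5, at 160, 110 and 220 CPM against 361 and 367 CPM (-1.15 ± 0.46, adjusted p = 0.579). Dag1 was the fourth, at 303, 207 and 373 CPM against 484 and 669 CPM (-0.97 ± 0.41, adjusted p = 0.62). Itga4 lay higher, at 5.58, 12 and 19.5 CPM against 0.935 and 1.14 CPM (3.54 ± 1.03, adjusted p = 0.301), as it had with DAPT at 24 h. None of these 5 overlapped between groups, and DESeq2 called Itga6 lower (adjusted p = 0.012) and Itga4 higher (adjusted p = 0.0493). Over all members, 8 lay lower and 2 higher without overlap, against 10.4% and 10.1% of all genes.

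Itga8 and Itgb6 did not follow that direction. Itga8 had 1540, 2600 and 1360 CPM in nonpermissive cells (0.52 ± 0.44 against control, adjusted p = 0.901) and Itgb6 had 226, 260 and 179 CPM (0.69 ± 0.44, adjusted p = 0.85), both overlapping the control libraries. The remaining members named throughout were not called against control: Itgav, Itgb1, Itgb4, Lama5, Lamb1, Lamb2 and Lamc1 had log2 fold changes of -0.38 ± 0.45, -0.26 ± 0.49, -0.35 ± 0.83, -0.45 ± 0.49, 1.44 ± 0.77, 0.1 ± 0.48 and -0.3 ± 0.49 in that order, errors that leave changes of 2-fold possible for most of them.

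The direct test of permissive against nonpermissive cells compares cells that were treated alike. It called 9 of 32 members, all lower in permissive cells (6.35% of all genes were called lower and 6.78% higher), and the median log2 fold change was -1.49 against -0.0 over all genes. These 9 were also among the 14 called against control, a comparison with the same permissive libraries. Samples of replicate number 1 deviated together in these 2 groups (r = 0.576), and those of numbers 2 and 3 only weakly (0.152 and 0.127). With the replicate number as a block 15 members were called, all lower. Over all genes the share called rose from 13.1% to 16% with the block, and the number called lower from 852 to 1089. The block added Itga6, Itgav, Itgb1, Agrn, Lama2, Lamb1 and Nid2 and ended the call of Itgb4 (adjusted p = 0.0579).

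Itgb6 gave the smallest p, with 226, 260 and 179 CPM in nonpermissive and 13.4, 12.4 and 17.4 CPM in permissive cells (-3.94 ± 0.44, adjusted p = 0.000123, edgeR), 15.4-fold lower. Itga8 had 1540, 2600 and 1360 CPM against 208, 252 and 252 CPM (-2.95 ± 0.42, adjusted p = 0.000516, edgeR). In both genes the lowest nonpermissive library stood at several times the highest permissive one.

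Itgb5 had 160, 110 and 220 CPM in nonpermissive cells against 22.9, 43.8 and 19.8 CPM (-2.5 ± 0.44, adjusted p = 0.00218, edgeR). Lamb2 had 67.9, 50.8 and 94.7 CPM against 13.2, 16.4 and 17.0 CPM (-2.2 ± 0.45, adjusted p = 0.0055, edgeR), and Itgb8 had 24.3, 25.7 and 14.1 CPM against 4.95, 1.67 and 2.83 CPM (-2.71 ± 0.63, adjusted p = 0.0111, edgeR). These 3 genes, Itgb6 and Itga8 kept their calls when any 1 library was left out. Itga9, at 26.0, 21.7 and 38.1 CPM against 6.6, 3.68 and 6.87 CPM (-2.32 ± 0.56, adjusted p = 0.0136), lost its call without nonpermissive replicate 3. Itgb4, at 11.7, 3.43 and 7.36 CPM against 0.619, 1.67 and 0.809 CPM (-2.86 ± 0.86, adjusted p = 0.0415), lost it in 5 of 6 omissions, and Itgb2, at 33 counts against 1 (ratio 40.2, exact 95% interval 6.73 to 1640, counting error only; adjusted p = 0.0275), in 4.

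Itga6, Itgav, Itgb1, Lama2 and Agrn, called against control, were not called here in the main fit. Their log2 fold changes were -1.14 ± 0.39, -1.3 ± 0.41, -1.42 ± 0.45, -1.55 ± 0.51 and -1.07 ± 0.43, with adjusted p-values of 0.0718, 0.0544, 0.0508, 0.0608 and 0.126 in that order (edgeR). DESeq2 called Itga6, Itgav, Itgb1 and Lama2 lower (adjusted p from 0.0171 to 0.035) and did not call Agrn (0.0849). For Itga6 and Agrn the nonpermissive libraries lay between the other 2 groups, at 330 to 470 CPM and 353 to 484 CPM. Lamb1 had 66.7, 52.5 and 52.5 CPM in nonpermissive and 4.33, 5.69 and 29.1 CPM in permissive cells (-2.16 ± 0.69, adjusted p = 0.0548). Dag1 alone of the members with no overlap lay higher in permissive than in nonpermissive cells, at 445, 385 and 382 CPM against 303, 207 and 373 CPM, and was not called (0.46 ± 0.37, adjusted p = 0.505). The other 19 members without overlap lay lower, where 14.7% of all genes lay lower and 15.4% higher without overlap.

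**Figure D4:**
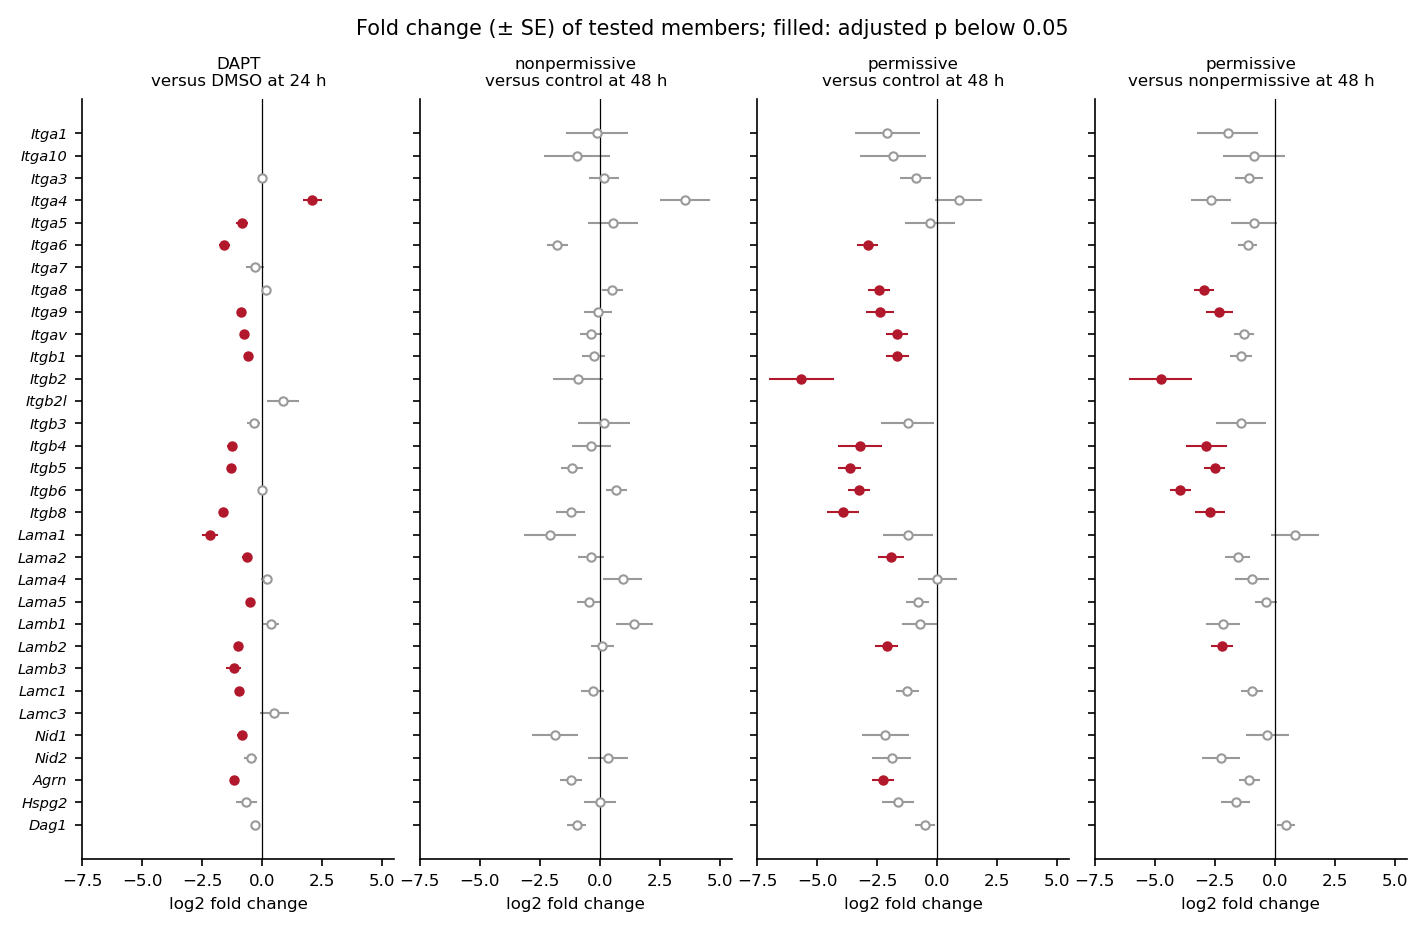
Log2 fold change (± SE) of tested integrin, laminin, nidogen, proteoglycan and dystroglycan genes in the 4 comparisons, with filled red points at an adjusted p below 0.05 in edgeR's quasi-likelihood test. The panel of nonpermissive against control cells has no filled point, Itga8 and Itgb6 are filled in both permissive panels and open at 24 h, and Itga4 is the one filled point above 0.

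Set beside each other, the calls at 24 h and in permissive against control cells shared 11 members, all lower, among them Itga6, Itga9, Itgav, Itgb1, Itgb4, Itgb5, Itgb8, Lama2, Lamb2 and Agrn. Of the 12809 genes tested at both times 664 (5.18%) were lower in both. The libraries of the 2 comparisons are separate. The 5 genes Itga5, Lama1, Lama5, Lamc1 and Nid1, lower at 24 h, were not called in permissive cells, and Lamb3 was not tested at 48 h. Lama1, with the largest fall at 24 h, had 7.11 and 5.99 CPM in control and 5.37, 2.34 and 0.404 CPM in permissive cells at 48 h (-1.22 ± 1.05, adjusted p = 0.525). Itga8 and Itgb6 were called in permissive cells and not at 24 h, and Itgb2 was not tested at 24 h. Whether any of these genes responds differently at the 2 times was not tested.

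In all, 11 members were tested at neither time: Itga2, Itga2b, Itga11, Itgad, Itgae, Itgal, Itgam, Itgax, Itgb7, Itgb1bp2 and Lama3. Itgad and Itgax had no count in any library, which allows up to 3 counts per library, and Itga2b, Itgae, Itgal, Itgam and Itgb7, subunits of platelets and leukocytes, were at 4.48 CPM or lower in every library. Itga7, Itgb2l, Lamb3 and Lamc3 were tested at 24 h only and Itga1, Itga10 and Itgb2 at 48 h only. Of the 3 tested genes that carry an integrin-like symbol without being a subunit (Itgb1bp1, Itgb3bp and Itgbl1), none was called in any comparison, and 1 had an unadjusted p below 0.05, Itgbl1 in permissive against nonpermissive cells.

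Other genes of the basement membrane and of cell adhesion were read from lists written down for this purpose, with the members left out. Of 24 other basement membrane components, 20 were tested. At 24 h 11 fell and 2 rose (median log2 fold change -0.89), in permissive against control cells 11 fell and 1 rose (-2.26), against nonpermissive cells 9 fell (-1.4), and none was called in nonpermissive against control cells (edgeR; 1 at an unadjusted p below 0.05). The 65.0%, 60.0% and 45.0% called in the first 3 compare with 25.7%, 13.0% and 13.1% of all genes. Collagen IV chains had the smallest adjusted p at 24 h: Col4a1, a chain of the common collagen IV network that laminin is joined to, fell by 1.69 ± 0.1 on the log2 scale at 24 h (adjusted p = 1.08e-05, edgeR), Col4a2 by 1.46 ± 0.1 (adjusted p = 1.82e-05) and Col4a5 by 1.02 ± 0.09 (adjusted p = 9.43e-05). At 48 h these first 2 chains parted from the rest of the family. In permissive against control cells Col4a1 (-0.38 ± 0.57, adjusted p = 0.75) and Col4a2 (0.2 ± 0.55, adjusted p = 0.867) were not called, whereas the chains of the other collagen IV network, Col4a4 and Col4a5, fell by 4.53 ± 0.64 (adjusted p = 0.000518) and 3.6 ± 0.67 (adjusted p = 0.00286). Col4a3, the remaining chain of that network, had 188 counts in control and 2 in permissive libraries, a ratio of 109 with an exact 95% interval of 29.9 to 910 for counting error only (adjusted p = 0.000937, edgeR). Whether the chains differ from each other was not tested, and mesenchyme and vessels, whose marker sums are given above, make Col4a1 and Col4a2 too. Sparc, a collagen-binding protein of basement membranes, fell by 2.72 ± 0.44 (adjusted p = 0.00109).

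Of 14 hemidesmosome and laminin-binding partners, all tested, 8 fell at 24 h, 8 fell in permissive against control and 6 in permissive against nonpermissive cells, and none rose, where 14.2%, 7.28% and 6.35% of all genes were called lower. Sdc1, the cell surface proteoglycan syndecan-1, fell by 2.85 ± 0.16 at 24 h (adjusted p = 7.11e-06, edgeR), by 3.79 ± 0.58 in permissive against control (adjusted p = 0.000838) and by 3.18 ± 0.57 in nonpermissive against control cells (adjusted p = 0.0393). It was the one gene of these lists called in nonpermissive cells. Sdc4 fell by 3.75 ± 0.42 and Cd44, the hyaluronan receptor, by 3.01 ± 0.52 in permissive against control cells (adjusted p = 0.000111 and 0.00192). Sdc2 and Cd47, the integrin-associated protein, fell by 1.33 ± 0.11 and 1.45 ± 0.12 at 24 h.

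On the cytoplasmic side of adhesion, of 22 tested integrin adaptors and signalling genes, 6 fell and 2 rose at 24 h, 2 fell and 1 rose in permissive against control cells, and 3 fell against nonpermissive cells. The 36.4%, 13.6% and 13.6% called compare with 25.7%, 13.0% and 13.1% of all genes, so this list lay near the background at 48 h. Fermt2, the kindlin that activates integrins in most tissues, fell by 0.63 ± 0.1 and Pxn, the adaptor paxillin, by 1.0 ± 0.13 at 24 h (adjusted p = 0.00179 and 0.00057, edgeR). The actin-binding parvins went apart in permissive against control cells: Parva fell by 1.65 ± 0.39 (adjusted p = 0.0114) and Parvb rose by 3.82 ± 0.84 (adjusted p = 0.00802).

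Integrin ligands outside the basement membrane moved in both directions. At 24 h 6 of 14 tested fell and 4 rose, in permissive against control cells 5 of 15 fell and 2 rose, and against nonpermissive cells 4 fell and 3 rose. These are 71.4%, 46.7% and 46.7% of those tested, beside 25.7%, 13.0% and 13.1% of all genes. Tnc, tenascin-C, which alpha 8 and alpha 9 integrins bind, rose by 1.41 ± 0.14 at 24 h (adjusted p = 0.000128, edgeR), while Fbn1 fell by 2.74 ± 0.17 and Thbs1 by 1.49 ± 0.13. Npnt, nephronectin, is a ligand of alpha 8 beta 1 that this list holds although it belongs to basement membranes. It fell by 0.86 ± 0.09 at 24 h (adjusted p = 0.00021, edgeR), where Itga8 was not called. In permissive against control cells Npnt fell by 2.15 ± 0.47 (adjusted p = 0.00759), where Itga8 fell too. Ccn2, a matricellular ligand, fell by 4.21 ± 0.55 and 5.4 ± 0.55 in permissive against control and against nonpermissive cells.

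Of 17 tested genes of the dystroglycan complex and its glycosylation, 4 fell and 3 rose at 24 h, 2 fell and 1 rose in permissive against control cells, and 1 of each was called against nonpermissive cells. The 41.2%, 17.6% and 11.8% called compare with 25.7%, 13.0% and 13.1% of all genes, so at 48 h this list too lay near the background. Dmd, dystrophin, fell by 1.01 ± 0.13, 3.2 ± 0.6 and 2.35 ± 0.56, while Dtna, the dystrophin-binding dystrobrevin alpha, rose by 1.19 ± 0.1, 2.15 ± 0.58 and 1.61 ± 0.49 in these 3 comparisons (adjusted p from 5.6e-05 to 0.0448, edgeR). Of the matrix proteases and inhibitors, 9 of 17 tested fell and 1 rose at 24 h, 8 of 18 fell and 1 rose in permissive against control cells, and 5 fell and 1 rose against nonpermissive cells. The shares called were 58.8%, 50.0% and 33.3%, beside the same 25.7%, 13.0% and 13.1% of all genes. Timp3, a metalloprotease inhibitor, fell by 1.7 ± 0.1 and Plat, tissue plasminogen activator, by 1.75 ± 0.13 at 24 h. Mmp24, a membrane metalloprotease, rose by 5.42 ± 0.74 and 6.81 ± 0.7 in permissive against control and nonpermissive cells (adjusted p = 0.000372 and 8.27e-05, edgeR).

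At 48 h, peaks within 1000 bases of a start site were read for the 31 members that the promoter table holds. ATAC peaks lay at 25 and 22 of them in the control, 23 and 25 in the nonpermissive and 20 and 24 in the permissive libraries, 64.5% to 80.6% of the 31, where 60.5% to 68.7% of all 17492 protein-coding genes in the table had one. H3K27ac peaks lay at 15 and 13 members in control, 17 and 14 in nonpermissive and 12 and 11 in permissive libraries, where 38.5% to 50.7% of all genes had one. The permissive counts were the lowest for H3K27ac, although both permissive libraries had more regions (114572 and 72430) than the control libraries (57839 and 55391). That order depends on the peak limit: at a −log10 q of at least 10 the H3K27ac counts were 1 and 2 members in control, 10 and 2 in nonpermissive and 8 and 0 in permissive libraries. With 2 libraries per group no test was made, and the number of peaks called differs between libraries.

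The start site of Itga8, just after the window printed above, held an ATAC peak in all 6 and an H3K27ac peak in all 6 libraries, the 2 permissive ones included, where its RNA was 5.4-fold lower than in control cells. The authors' fold enrichment of the H3K27ac peak was 3.42 and 4.63 in control, 7.69 and 3.92 in nonpermissive and 7.61 and 5.58 in permissive libraries. Itgb6 and Itgb8 also had peaks of both kinds in all 12 libraries, although their RNA was 9.57-fold and 15.3-fold lower in permissive cells. Itgb5 kept its ATAC peak in all 6 libraries, but its H3K27ac peak was present in both control libraries, in nonpermissive replicate 2 and in neither permissive library. Agrn, Itga3, Itgb1 and Lamb2 held both peaks in all libraries, Dag1 and Itgav lacked only the H3K27ac peak of permissive replicate 2, and Nid1, Itga2b, Itgam and Itgb2l had no peak in any library. A start site without a called peak can still carry signal below the caller's threshold.

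H3K27ac regions within the whole gene were counted after these results were seen. Itgb8 held 23 and 16 in control, 25 and 7 in nonpermissive and 5 and 2 in permissive libraries, and Itgb5 held 7 and 8, then 8 and 8, then 0 and 4. Itgb6 held 4 and 9, then 21 and 6, then 3 and 2, and Lamc1 held 11 and 10, then 31 and 10, then 4 and 4. Of all 47 members, 7 had fewer regions in each permissive library than in either control library, these 4 among them, 6 had more and 34 neither. Those with more included Itga8, with 8 and 10 in control, 21 and 10 in nonpermissive and 56 and 14 in permissive libraries, and Itga6, with 2 and 5, then 9 and 4, then 25 and 9, both lower in RNA in permissive cells. Counts of regions move with how finely a library was called, and the H3K27ac totals per library ranged from 46284 to 114572. For ATAC regions, by the same rule, 2 of the 47 members had fewer in permissive libraries, 5 had more and 40 neither. No share over all genes was computed for either tally, so neither is read as a result about the members.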

How the data were processed

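RNA was read from the deposited gene tables, 1 per sample, whose expected counts and TPM the authors made with RSEM, per the file headers. STAR, RSEM, DESeq2, Bowtie2, MACS2 and the build mm10 are named in the submitters' processing notes, with versions and filters not given in the sources used here. Per the labels, RNA libraries were poly(A)-enriched at 24 h and made with a single-cell kit at 48 h. Peak lists were deposited per library, and their fold enrichment and −log10 q are the authors' values as deposited.

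Identifiers were paired with symbols through a gene name table (48349 of 48709 matched, 99.3%) and with GRCm38.p6 RefSeq annotation and promoters. Expected counts were rounded and tested with edgeR 4.0.16 (filterByExpr, TMM, quasi-likelihood test, Benjamini-Hochberg adjustment over all genes within each comparison, threshold 0.05). The 24 h groups were fitted apart from the 3 groups of 48 h, which shared 1 fit. CPM are counts over TMM-scaled totals of the tested genes. SE is the log2 fold change over the square root of F. The fit was tested on simulated counts. Alternatives were DESeq2 1.42.0, other scalings and filters, a replicate block, 2-group fits and leaving out each library. Marker lists of other cell types were summed in CPM. A member had a promoter peak where a peak lay within 1000 bases of a start site.

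The members and lists were chosen with earlier results of these data known. By rule, every called member was named (1 is not reported here, in text or figures, but stays in the counts), values in every sample were given for up to 12 called members of largest change per comparison, 14 genes were given throughout, and up to 3 called genes per list. Replicate numbers come from the titles. Deviations of permissive and nonpermissive samples of the same number correlated clearly for number 1 only (r = 0.576, 0.152 and 0.127 over 7484 genes). For unlike numbers, nonpermissive 3 and permissive 2 had 0.187, and nonpermissive 2 and permissive 3 had 0.135. The replicate number was a block in an alternative fit, and the main fit had no pairing. At 24 h DMSO and DAPT samples of the same number did not correlate (0.008, -0.047 and -0.074 over 8980 genes). FPKM was not used.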

Additional observations from a re-analysis of the deposited data

How the results depend on the processing

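Of 1168 recomputed values of members called in at least 1 comparison or given throughout, 1079 kept their call or lack of one, 48 lost and 41 gained a call, and 0 called values changed sign. The number of members called in nonpermissive against control cells, 0, became 1 with no filter and 2 with DESeq2. The share called over all genes went from 0.194% to 1.39% and 1.18%. In permissive against nonpermissive cells, 9 became 15 with the replicate block and 16 with DESeq2. There the share over all genes went from 13.1% to 16% and 17.5%. The replicate block ended the call of Itga5 at 24 h (adjusted p = 0.0736) and changed none of the other members' calls there or against control at 48 h. In permissive against control cells 14 became 8 to 13 with 1 library left out. Counts were 14 to 18 at 24 h and 6 to 11 in permissive against nonpermissive cells in the same way. In these fits 16.6% to 31.8% and 9.21% to 12.3% of all genes were called.

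With peaks limited to a −log10 q of at least 10, the mean number of members with an ATAC peak in control, nonpermissive and permissive libraries was 15, 15.5 and 12.5 (from 23.5, 24 and 22) and with an H3K27ac peak 1.5, 6 and 4 (from 14, 15.5 and 11.5). Within 200 bases of the start site the means were 22.5 and 19 for ATAC in nonpermissive and permissive and 10, 12 and 8 for H3K27ac. The cause of these changes was not tested, beyond the fewer peaks that a stricter limit or a narrower window leaves. Depth at 48 h was 2165338 to 4896374 counts per library, which limits the precision of members with low CPM there.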
